A study of Mus musculus with 12 samples.

Results

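Sensory neurons of the L6 and S1 dorsal root ganglia were compared with those of the L3, L4 and L5 ganglia in female mice, library by library. The 6 libraries were all those with F in their title, of 12 in the series: 3 from L6S1 ganglia (A, B and C) and 3 from L345 ganglia (B, C and D). They were fitted alone, without the 6 libraries from male mice, across all genes. The mice were 3 months old and of strain C57BL/6. All 6 pools carried, per the source names, the RetFloxedEGFP allele (a floxed Ret with EGFP expressed after Cre excision, in mice heterozygous for the knock-in at the Ret locus) and Cre recombinase at Scn10a, the locus of the sodium channel NaV1.8 (the allele Scn10a<tm2(cre)Jnw>). By this design the labelled cells of L345 and of L6S1 both lacked 1 Ret copy, and no group with both copies intact entered the comparison. The genotype field of L345 D names the Ret allele alone, and that of L6S1 B and C names the Scn10a allele alone.

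Ganglia were pooled over mice, dissociated and sorted by EGFP before RNA extraction, so 1 library is 1 pool. L345 B, C and D came from 18 ganglia of 3 mice, 12 of 2 and 18 of 3. L6S1 A, B and C came from 32 ganglia of 8 mice, 16 of 4 and 12 of 3. Whether pools of different levels shared mice is not stated in the labels, and p-values measure the spread between these pools. L345 B, L345 C and L6S1 A were in a first submission, and L345 D, L6S1 B and L6S1 C in a second. Total counts were 26182799, 25295739 and 26694404 for L345 B, C and D, and 16176436, 23362991 and 24782187 for L6S1 A, B and C. A count of 3 corresponded to 0.112 to 0.185 CPM (counts scaled to the library total), depending on the library. Reads carried no molecular identifiers, so limits and intervals from counts cover counting error only.

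Dorsal root ganglia hold the cell bodies of the sensory neurons that serve skin, muscle and viscera. In the mouse the L3 to L5 ganglia mainly supply the hindlimb, while L6 and S1 ganglia send afferents through the pelvic and pudendal nerves to bladder, distal colon, genitalia and perineum. Position along the body axis is marked by Hox genes, transcription factor genes in 4 clusters whose order on the chromosome follows the order of their expression domains from head to tail. NaV1.8-expressing neurons are mostly small nociceptors, and Ret, the receptor for GDNF family ligands, is kept by the non-peptidergic nociceptors and by a group of low-threshold C fibres.

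The libraries held the transcripts of such neurons. Scn10a stood at 603, 676 and 451 CPM in L345 B, C and D and at 396, 358 and 546 CPM in L6S1 A, B and C. Ret stood at 191, 200 and 149 CPM in L345 and at 142, 161 and 232 CPM in L6S1, with overlapping groups. Its log2 fold change (L6S1 minus L345, as everywhere below) was -0.02 ± 0.24 (SE, edgeR adjusted p = 0.980), and its sign turned under several scalings. The reads do not separate the floxed from the intact allele. Mrgprd, the receptor gene that marks non-peptidergic nociceptors, ranged from 324 to 637 CPM over the 6 libraries. Th, tyrosine hydroxylase of the low-threshold C fibres, ranged from 474 to 973 CPM. Calca, the gene of the peptide CGRP, was at 5856 to 10417 CPM, and Trpv1, the capsaicin receptor, at 501 to 914 CPM. Both were listed as markers of peptidergic nociceptors, so the pools were not limited to transcripts of the non-peptidergic class. Calca lay above Mrgprd in every library. Xist, transcribed from the inactive X chromosome, was at 16.1 to 68.2 CPM in these 6 libraries and at most 0.437 CPM in the male ones.

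The 3 L6S1 libraries were not alike, and L6S1 A stood closer to the L345 libraries than to L6S1 B or C. The Spearman correlation over genes was 0.986 to 0.987 between L6S1 A and each L345 library, against 0.961 with L6S1 B and 0.956 with L6S1 C. L6S1 B and C were no closer to each other (0.961), while pairs of L345 libraries reached 0.985 to 0.992. Among 9948 genes averaging 5 CPM or more, L6S1 A had 61 more than 1 log2 unit above the mean of L345 and 14 more than 1 below it. L6S1 B had 140 above and 1390 below, and L6S1 C had 218 above and 1383 below. The low genes of B and C were partly shared: 579 genes were low in both and not in A, 805 in B alone and 799 in C alone. Their median GC content was 52.8% over those 579 genes, against 50.1% over all 9948, and their median transcript length 1258 bases against 1419. In contrast, 30 genes lay more than 1 unit above L345 in all 3 libraries, and 2 lay below in all 3.

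**Figure D1:**
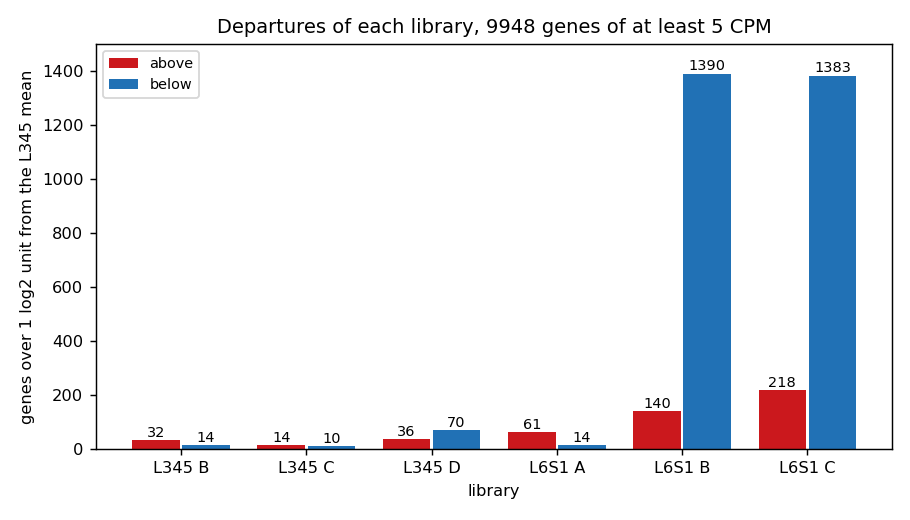
Number of genes (vertical axis) whose log2 CPM lay more than 1 unit above (red) or below (blue) a reference, for each of the 6 libraries (horizontal axis). The reference is the L345 mean for L6S1 libraries and the mean of the other two L345 libraries for an L345 library. L6S1 B and C have 1390 and 1383 low genes, and L6S1 A has 14.

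Named genes show how far B and C lay from the rest. Cox5a, a subunit of cytochrome c oxidase, was at 117, 118 and 163 CPM in L345 and 156 CPM in L6S1 A, but at 4.77 and 4.49 CPM in L6S1 B and C. Fth1, the ferritin heavy chain, was at 2327, 2537 and 2727 CPM in L345, 2549 CPM in L6S1 A, and 149 and 619 CPM in B and C. H2-D1, a class I histocompatibility gene, was low in the same 2 libraries, with 47.4 and 93.3 CPM against 347 to 445 CPM in L345 and 350 CPM in L6S1 A. The second submission did not share this pattern as a whole. L345 D, of that submission, held the 163 CPM of Cox5a, and male L6S1 C, also of that submission, held 199 CPM of Cox5a and 2982 CPM of Fth1.

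L6S1 C also stood apart in transcripts known as markers of cells other than neurons, although all pools were sorted by EGFP. The source of these transcripts was not tested. Lum, the fibroblast proteoglycan lumican, was at 39.9 CPM in L6S1 C and between 1.22 and 2.46 CPM in the other 5 libraries. Lyz2, lysozyme of macrophages, was at 34.1 CPM against 0.998 to 1.51 CPM, and Apod, a lipocalin of fibroblasts and glia, at 196 CPM against 15.8 to 28.3 CPM. Cd74, the invariant chain of class II histocompatibility molecules, was at 138 CPM in C, 8.82 CPM in A, 6.85 CPM in B and at most 1.44 CPM in L345. L6S1 B stood out by Malat1, a nuclear long RNA, with 9699 CPM against 4186 CPM in A and 1965 CPM in C. L6S1 C was lowest in Eea1, an endosome tether, with 4.19 CPM against 22.4 to 52.4 CPM in the other 5. The part that these differences between pools have in the results was not tested, so each result is given with its 3 L6S1 values, and with the fit of L6S1 A alone against the 3 L345 libraries where that ended a call.

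Between L6S1 and L345, 18 of 14693 genes tested (0.123%) differed at an adjusted p under 0.05 (edgeR quasi-likelihood F-test, Benjamini-Hochberg). Of these, 17 (0.116% of the genes tested) were higher and 1 (0.00681%) was lower at L6S1. The higher genes were Hoxd10, Hoxd11 and Hotair of the Hox clusters, the nicotinic receptor subunits Chrna3 and Chrnb4, the peptide and hormone genes Qpct, Mrap2 and Srd5a2, and Scgn, Gsta4, Fbxl17, Serpinb1b, Arap3, C1qtnf7, Olfr558, Dcn and Igha. The lower gene was Hoxb7. Every L6S1 library lay outside the range of L345 for all 18 genes, as it did for 9.68% of all tested genes on the higher side and 10.1% on the lower side. The median log2 fold change over all genes was -0.06, the smallest among the 18 was 1.67 in size, and the biological coefficient of variation was 0.293. At an unadjusted p under 0.05 there were 1828 genes.

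**Figure D2:**
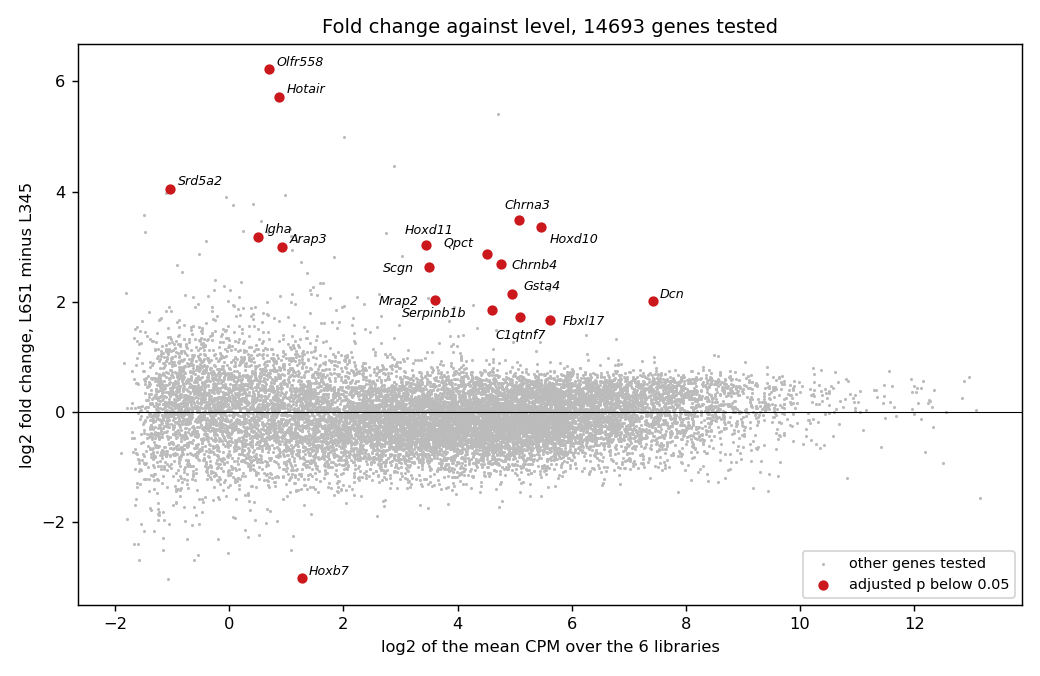
Log2 fold change, L6S1 minus L345 (vertical axis), against the log2 of the mean CPM over the 6 libraries (horizontal axis), 1 point a gene for the 14693 genes tested. The 18 called genes are red and named; 17 lie above 0 and Hoxb7 lies below it at -3.01.

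The number of calls depended on the libraries used. With L6S1 A alone it was 24, of which 15 were among the 18, and without L6S1 A it was 1361 (387 higher and 974 lower), among them all 18. Within the first submission (L345 B and C against L6S1 A) it was 80, 16 of them among the 18. Within the second (L345 D against L6S1 B and C) it was 384, of which 348 were lower, and 10 were among the 18. In these fits with 1 library on a side, that library is assumed to vary like the others. With submission as a term in the fit of all 6 libraries, 7 of the 18 stayed called: Hoxd10, Hoxd11, Chrna3, Qpct, Scgn, Dcn and Gsta4. The call ended for the other 11, at edgeR adjusted p-values from 0.0574 (Arap3) to 0.205 (Igha), and their signs did not change.

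Hox genes of caudal position gave the smallest p-value of the comparison. Hoxd10, a transcription factor gene of lumbosacral segments, was at 8.68, 8.46 and 6.17 CPM in L345 B, C and D and at 75.5, 91.0 and 73.4 CPM in L6S1 A, B and C. All 3 L6S1 libraries lay far above L345, and A, B and C were close to each other. The log2 fold change was 3.36 ± 0.26 (SE, n = 3 and 3, edgeR adjusted p = 0.000724). Hoxd11, its neighbour toward the caudal end of the same cluster, was at 2.79, 2.73 and 1.63 CPM in L345 and at 17.0, 22.1 and 19.5 CPM in L6S1. Again no library overlapped, and the log2 fold change was 3.03 ± 0.31 (edgeR adjusted p = 0.00332). Hoxd10 lies at chr2:74691924-74695105 and Hoxd11 at chr2:74679557-74687016, both on the plus strand, in the deposited tables (GRCm38.p2).

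The promoter windows of this pair are shown because both genes rose together and lie side by side. They run from 250 bases before to 50 after the transcription start in RefSeq (table build GRCm38.p6), at chr2:74691641-74691940 for Hoxd10 and, for the start nearest to the deposited gene, chr2:74679308-74679607 for Hoxd11. Capitals mark matches to TAAT, the core that homeodomain proteins bind, on either strand (its reverse complement is ATTA, and both overlap in TAATTA). Searches for the GC box GGGCGG and the TATA box TATAAA, also on both strands, gave no match in these 2 windows.
Hoxd10: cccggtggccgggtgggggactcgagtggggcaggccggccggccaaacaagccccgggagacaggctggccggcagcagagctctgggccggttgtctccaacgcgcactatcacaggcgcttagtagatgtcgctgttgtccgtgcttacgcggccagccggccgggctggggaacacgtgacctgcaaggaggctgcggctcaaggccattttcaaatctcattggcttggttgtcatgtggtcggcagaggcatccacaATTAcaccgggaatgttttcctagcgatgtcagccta
Hoxd11: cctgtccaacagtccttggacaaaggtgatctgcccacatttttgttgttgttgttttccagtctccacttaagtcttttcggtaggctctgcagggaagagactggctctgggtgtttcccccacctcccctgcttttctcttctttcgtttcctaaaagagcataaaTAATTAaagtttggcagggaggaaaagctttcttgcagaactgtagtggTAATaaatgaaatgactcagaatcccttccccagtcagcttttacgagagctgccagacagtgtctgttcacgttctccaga
Hoxd10 holds 1 TAAT match and Hoxd11 holds 3, of which 2 overlap. Over all 32851 RefSeq windows of 300 bases, 58.0% hold a TAAT match, 35.7% a GC box and 13.6% a TATA box, so a TAAT match is common among windows of this length. GC content was 62.7% in the Hoxd10 window and 45.7% in the Hoxd11 window.

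Hotair, a long noncoding RNA transcribed from the HoxC cluster, was near the limit of counting in L345. It had 4, 0 and 1 counts in L345 B, C and D (0.151, 0 and 0.0370 CPM) and 69, 98 and 56 counts in L6S1 A, B and C (4.20, 4.25 and 2.37 CPM). The ratio of summed counts, each divided by the summed totals of its libraries, was 54.2, with a 95% counting interval of 22.9 to 169. The fitted log2 fold change was 5.72 ± 0.68 (edgeR adjusted p = 0.00625), and without L345 D the adjusted p was 0.0593. Hoxc11, a coding gene beside Hotair, went from at most 0.312 CPM in L345 to 2.62, 1.04 and 1.78 CPM in L6S1, but its log2 difference of 3.91 ± 0.84 did not pass the test (edgeR adjusted p = 0.227).

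The one called decrease was also a Hox gene. Hoxb7, of the trunk part of the HoxB cluster, was at 3.06, 3.98 and 5.84 CPM in L345 and at 0.609, 0.390 and 0.593 CPM in L6S1. All 3 L6S1 libraries lay below L345, and the log2 fold change was -3.01 ± 0.41 (edgeR adjusted p = 0.0167). The edgeR adjusted p was 0.0746 without L345 C, 0.120 without L345 D and 0.10 without L6S1 B. With limma-voom and sample quality weights the adjusted p was 0.104. The call also ended with L6S1 A alone (log2 fold change -2.82) and in the first submission alone (-2.53). Hoxb6, its neighbour, had 1.51, 1.95 and 2.77 CPM in L345 and 0.487, 0.303 and 0.508 CPM in L6S1, with no overlap, but -2.26 ± 0.45 did not pass (edgeR adjusted p = 0.148).

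Across the Hox lists, the caudal members were high and the trunk members mostly low, and few passed the test. Of 12 caudal genes (paralogue groups 10 to 13 and Hotair), 6 were tested, 3 rose (0.116% of all genes tested did) and none fell, and their median log2 difference was 3.20, against -0.06 over all genes tested. The medians in L6S1 A, B and C taken singly were 3.06, 3.01 and 3.13. Single members varied more between the pools. Hoxc11 differed from L345 by 4.08, 2.82 and 3.54 in A, B and C, and Hotair by 5.00, 5.01 and 4.20. Hoxa10, a caudal member, did not follow: it was at 53.9, 56.2 and 60.0 CPM in L345 and at 54.8, 49.8 and 55.7 CPM in L6S1 (-0.09 ± 0.20, edgeR adjusted p = 0.848). Hoxd13, Hoxa11 and Hoxa13 had no count in any of the 6 libraries. Of 24 anterior and trunk genes, 17 were tested, 1 fell (0.00681% of all genes tested did) and none rose, the median was -0.77, and for 8 of the 17 every L6S1 library lay below L345 (10.1% of all genes did). Hoxd9, in this list and next to Hoxd10, was the one with every L6S1 library above L345, at 9.25, 6.54 and 10.96 CPM against 2.94, 3.94 and 4.25 CPM (1.26 ± 0.31, edgeR adjusted p = 0.334).

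Of the nicotinic receptor subunits, 2 of 10 tested rose at L6S1, against 0.116% of all genes tested. Nicotinic receptors are pentameric cation channels opened by acetylcholine, and the alpha-3 and beta-4 subunits together form the main nicotinic receptor of autonomic ganglia. Chrna3, the alpha-3 subunit, was at 4.00, 5.96 and 6.62 CPM in L345 and at 87.0, 35.6 and 63.4 CPM in L6S1 A, B and C. L6S1 A was the highest and B the lowest of the 3, and all lay above L345. The log2 fold change was 3.49 ± 0.37 (edgeR adjusted p = 0.00472). Chrnb4, the beta-4 subunit, was at 5.36, 8.34 and 8.06 CPM in L345 and at 60.1, 31.0 and 49.7 CPM in L6S1, in the same order of libraries as Chrna3. Its log2 fold change was 2.69 ± 0.32 (edgeR adjusted p = 0.00625), and without L345 C the adjusted p was 0.0518. The other 8 tested subunits differed by -1.13 to 0.45, none with an edgeR adjusted p below 0.401, and the median over the 10 was 0.21.

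Chrna3 (chr9:55011343-55026559) and Chrnb4 (chr9:55028156-55048544) lie next to each other on the minus strand of chromosome 9 in the deposited tables. Their RefSeq windows (GRCm38.p6, minus strand) are chr9:55026513-55026812 and chr9:55048495-55048794, shown for comparison with the Hox pair. Capitals mark a GC box (GGGCGG or its complement CCGCCC).
Chrna3: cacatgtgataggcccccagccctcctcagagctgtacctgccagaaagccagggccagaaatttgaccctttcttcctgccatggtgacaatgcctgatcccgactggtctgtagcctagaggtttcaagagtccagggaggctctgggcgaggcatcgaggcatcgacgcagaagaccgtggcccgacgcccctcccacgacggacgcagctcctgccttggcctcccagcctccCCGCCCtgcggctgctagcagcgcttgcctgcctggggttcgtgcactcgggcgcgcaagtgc
Chrnb4: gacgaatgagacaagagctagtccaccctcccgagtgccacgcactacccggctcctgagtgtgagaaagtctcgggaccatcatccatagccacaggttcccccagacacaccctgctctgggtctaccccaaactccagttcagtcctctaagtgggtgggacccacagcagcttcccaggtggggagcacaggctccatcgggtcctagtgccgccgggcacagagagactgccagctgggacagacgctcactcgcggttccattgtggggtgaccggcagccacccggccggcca
Chrna3 holds 1 GC box and Chrnb4 none, and neither window holds TATAAA or TAAT on either strand. GC content was 64.3% and 63.0%.

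Genes of peptide and hormone signalling included 3 that rose. Qpct, glutaminyl cyclase, closes the N terminus of secreted peptides to pyroglutamate. It was at 5.43, 4.56 and 6.51 CPM in L345 and at 39.1, 47.2 and 33.9 CPM in L6S1, with every L6S1 library above L345. The log2 fold change was 2.86 ± 0.27 (edgeR adjusted p = 0.00318). It was the 1 called member of 14 peptide processing and granin genes, against 0.116% of all genes called higher, and the median of the 14 was -0.04. Mrap2, an accessory protein of melanocortin receptors, was at 5.32, 4.21 and 4.77 CPM in L345 and at 23.8, 14.2 and 20.8 CPM in L6S1, without overlap. Its log2 fold change was 2.04 ± 0.29 (edgeR adjusted p = 0.0200), and the adjusted p was 0.0872, 0.225 and 0.117 without L345 B, C or D.

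Srd5a2, a steroid 5-alpha-reductase that makes dihydrotestosterone from testosterone, was rare. It had 1, 1 and 2 counts in L345 and 19, 17 and 21 counts in L6S1, which is 1.16, 0.737 and 0.889 CPM in L6S1. The ratio of summed counts over summed library totals was 17.3 (95% counting interval 6.41 to 65.7). The fitted log2 fold change was 4.06 ± 0.64 (edgeR adjusted p = 0.0440), and the call ended with L6S1 A alone (0.198) and without L345 B (0.263), C (0.363) or D (0.219) or L6S1 B (0.10). Mrap2 and Srd5a2 were the 2 called of 16 steroid and pituitary hormone genes tested, against 0.116% of all genes called higher, and the median of the 16 was -0.05. Esr1, the oestrogen receptor alpha of the same list, was at 5.47, 8.81 and 9.50 CPM in L345 and at 40.5, 29.8 and 21.3 CPM in L6S1. The groups did not overlap, but 1.94 ± 0.32 missed the threshold (edgeR adjusted p = 0.0642).

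Scgn, Gsta4 and Fbxl17, which belong to none of the lists, also rose at L6S1. Scgn, the calcium-binding protein secretagogin, was at 2.98, 3.16 and 3.29 CPM in L345 and at 16.8, 20.3 and 21.7 CPM in L6S1. The lowest L6S1 library was above the highest L345 library, and the log2 fold change was 2.64 ± 0.26 (edgeR adjusted p = 0.00332). Gsta4, a glutathione transferase that acts on products of lipid peroxidation, was at 10.6, 10.2 and 13.5 CPM in L345 and at 48.3, 53.7 and 50.03 CPM in L6S1. L6S1 A, B and C were close to each other, and the log2 fold change was 2.15 ± 0.24 (edgeR adjusted p = 0.00482), or an adjusted p of 0.0725 without L345 C. Fbxl17, the substrate receptor of a ubiquitin ligase, was at 23.1, 25.7 and 21.96 CPM in L345 and at 69.4, 81.4 and 75.1 CPM in L6S1. No library overlapped, and the log2 fold change was 1.67 ± 0.22 (edgeR adjusted p = 0.0122), with adjusted p-values of 0.104, 0.127 and 0.117 without L345 B, C or D.

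Serpinb1b, a member of the intracellular serine protease inhibitors, was at 9.47, 10.8 and 11.1 CPM in L345 and at 33.7, 34.8 and 45.5 CPM in L6S1. It has close paralogues, and how reads that match several genes were counted is not stated in the labels. The log2 fold change was 1.86 ± 0.25 (edgeR adjusted p = 0.0140), and the adjusted p was 0.115, 0.164 and 0.0929 without L345 B, C or D. Arap3, a GTPase-activating protein downstream of phosphoinositides, was at 0.415, 0.468 and 0.370 CPM in L345 and at 4.87, 2.60 and 2.71 CPM in L6S1. L6S1 A was the highest library, and the log2 fold change was 3.00 ± 0.42 (edgeR adjusted p = 0.0200), with 0.0903, 0.153 and 0.130 without L345 B, C or D. C1qtnf7, a secreted protein of the C1q and TNF family, was at 13.9, 14.9 and 19.1 CPM in L345 and at 62.0, 51.1 and 44.6 CPM in L6S1. All 3 L6S1 libraries lay above L345, with 1.72 ± 0.25 (edgeR adjusted p = 0.0257), and the call ended without L345 B (0.197), C (0.275), D (0.0725) or L6S1 B (0.0641).

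Olfr558, an olfactory receptor gene of a large family, was all but absent from L345, with 0, 0 and 3 counts. L6S1 A, B and C had 64, 75 and 58 counts (3.89, 3.25 and 2.46 CPM). The ratio of summed counts over summed library totals was 79.8, with a 95% counting interval of 26.9 to 390. The fitted log2 fold change was 6.22 ± 0.74 (edgeR adjusted p = 0.00625). With submission as a term the adjusted p was 0.0679.

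**Figure D3:**
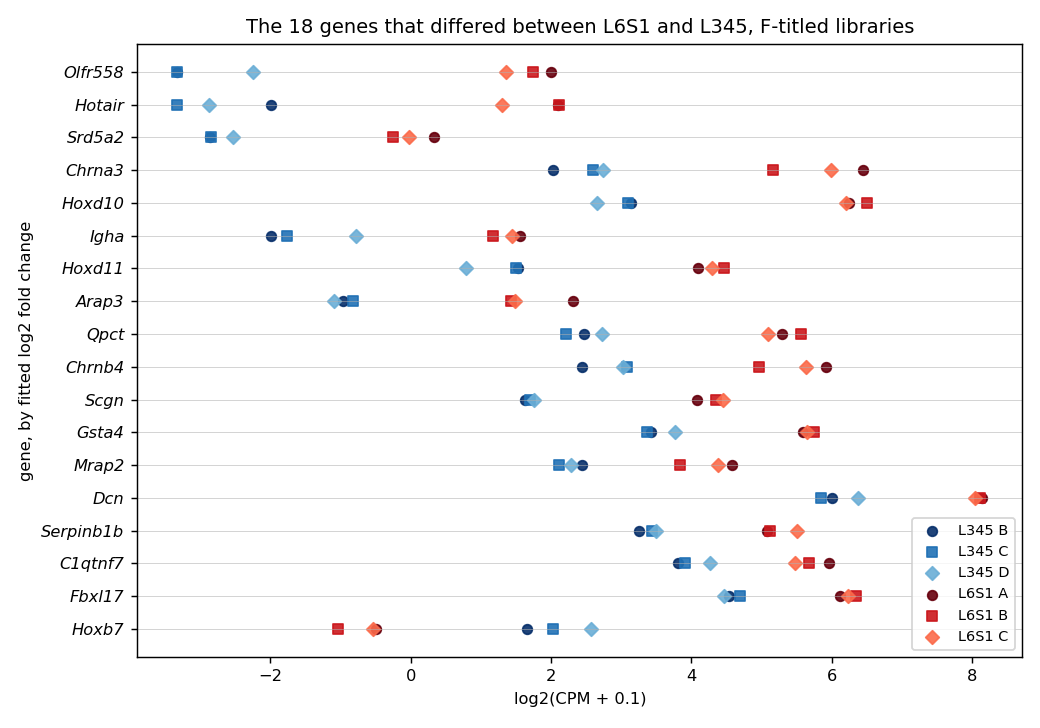
Log2(CPM + 0.1) (horizontal axis) of the 18 called genes (vertical axis, ordered by fitted fold change) in each of the 6 libraries; blue symbols are L345 B, C and D, red symbols are L6S1 A, B and C. In all 18 genes the red symbols lie to 1 side of the blue ones, and for Hoxb7 alone they lie to the left.

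The last 2 called genes belong to other cell types than neurons in most tissues. Dcn, the proteoglycan decorin of fibroblasts, was at 64.3, 57.6 and 82.5 CPM in L345 and at 283, 278 and 263 CPM in L6S1. The 3 L6S1 libraries were almost equal, the log2 fold change was 2.01 ± 0.22 (edgeR adjusted p = 0.00482), and the adjusted p was 0.0694 without L345 C. The other 12 fibroblast markers did not share this pattern: they summed to 29.7 to 36.3 CPM in L345, to 33.6 CPM in L6S1 A and 40.1 CPM in L6S1 B, and to 267 CPM in L6S1 C. Dcn was the 1 called of 9 fibroblast markers tested (0.116% of all genes were called higher), and the median difference of the 9 was 0.22 in A, -0.23 in B and 2.31 in C. Igha, the constant region of immunoglobulin A, had 4, 5 and 13 counts in L345 and 47, 50 and 62 in L6S1 (2.86, 2.17 and 2.62 CPM). Its log2 fold change was 3.18 ± 0.50 (edgeR adjusted p = 0.0439), and the call ended with L6S1 A alone (0.142) and without L345 B (0.169), L345 C (0.282) or L6S1 B (0.10).

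Of the immune and vascular lists, those of class II and B cell, macrophage, T cell, neutrophil and endothelial markers had their highest sum in L6S1 C, and those of mural cell markers and of interferon and class I genes did not. None of their tested members passed. The 11 class II histocompatibility and B cell markers summed to 41.9 to 53.2 CPM in L345 and to 76.3, 67.2 and 251 CPM in L6S1 A, B and C. Their 7 tested members had a median of 2.15, made of 0.95, 0.70 and 3.23 in the 3 libraries. The 13 macrophage markers summed to 7.01 to 8.25 CPM in L345 and to 9.77, 10.8 and 78.6 CPM in L6S1, and the 6 tested had a median of 1.57. T cell markers summed to 5.22 to 8.09 CPM in L345 and to 10.4, 11.5 and 17.5 CPM in L6S1, with no count of Cd8a in any library. Trac, the constant region of the T cell receptor alpha chain, was at 0.528, 1.09 and 0.665 CPM in L345 and at 2.37, 4.90 and 5.93 CPM in L6S1 (2.53 ± 0.45, edgeR adjusted p = 0.0885). Endothelial markers summed to 19.5 to 27.1 CPM in L345 and to 29.1, 17.7 and 62.1 CPM in L6S1. Mural cell markers summed to 220 to 326 CPM in L345 and to 298, 413 and 248 CPM in L6S1, highest in B. Interferon response and class I genes summed to 1174 to 1328 CPM in L345 and to 1080, 951 and 925 CPM in L6S1, lowest in C. This list holds H2-D1, at 47.4 and 93.3 CPM in B and C against 350 CPM in A. The medians of its 16 tested genes in A, B and C were -0.19, 0.001 and 0.05, so they did not share the order of the sums. The part of immune cells in the higher Igha and Cd74 of L6S1 was not tested, and in bulk samples more cells of a type and more RNA per cell cannot be told apart.

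Glial markers were more abundant and differed less. The 13 satellite glia markers summed to 1683 to 2074 CPM in L345 and to 1227 to 1644 CPM in L6S1, so every L6S1 sum lay below every L345 sum. Their median log2 difference was 0.06, and 8 of the 13 lay above 0. S100b, a calcium-binding protein of glia, was at 39.7, 97.0 and 50.5 CPM in L345 and at 149, 121 and 201 CPM in L6S1, and did not pass (1.33 ± 0.34, edgeR adjusted p = 0.401). The 12 markers of myelinating Schwann cells summed to 2504 to 2717 CPM in L345 and to 2684 to 3910 CPM in L6S1. Most of this sum was Pmp22, at 2361, 2237 and 2462 CPM in L345 and at 2478, 3816 and 3650 CPM in L6S1. Of the 10 Schwann cell markers tested, 3 lay above 0. Their median was -0.22, and in L6S1 A, B and C singly it was -0.50, -0.65 and 0.32. No tested glial marker was called.

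A further 11 genes lay at an adjusted p between 0.05 and 0.1, all of them higher in every L6S1 library; those other than Esr1, Kcnk2 and Trac were chosen after their values were seen. Kcnk2, the background potassium channel TREK, was at 13.5, 11.9 and 14.7 CPM in L345 and at 48.4, 34.6 and 29.5 CPM in L6S1 (1.49 ± 0.26, edgeR adjusted p = 0.0885). Itm2a, a membrane protein gene, was at 20.5, 18.7 and 26.3 CPM in L345 and at 45.7, 61.3 and 74.8 CPM in L6S1 (1.47 ± 0.26, 0.0885). The differences were 1.65 ± 0.27 for Upp1 (uridine phosphorylase), 1.38 ± 0.24 for Nrsn2 (a neuronal membrane protein), 1.96 ± 0.34 for Pls1 (an actin-bundling plastin) and 2.22 ± 0.39 for Qrfpr (receptor of the peptide QRFP). Rare transcripts among the 11 were Igfbp7, an insulin-like growth factor binding protein, Adm, the adrenomedullin precursor, and Slc22a3, an organic cation transporter, each at no more than 0.370 CPM in L345 and at most 3.60 CPM in L6S1.

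Neuropeptide genes did not pass the test. Of 15 neuropeptide precursors tested none was called and 12 lay above 0, as did 6742 of all 14693 genes tested. The median of the 15 was 0.58, built from 0.10 in L6S1 A, 0.73 in B and 0.72 in C. Tac1, the substance P precursor, was at 2178, 2335 and 2239 CPM in L345 and at 3294, 4374 and 3700 CPM in L6S1. The groups did not overlap, and 0.75 ± 0.20 had an edgeR adjusted p of 0.401. Gal, galanin, was at 176, 187 and 348 CPM in L345 and at 415, 545 and 496 CPM in L6S1 (1.03 ± 0.28, 0.401). Penk, the enkephalin precursor, was at 6.72, 14.4 and 24.8 CPM in L345 and at 38.7, 27.4 and 36.1 CPM in L6S1 (1.15 ± 0.41, 0.401). Nppb, the natriuretic peptide of itch neurons, was at 65.1, 89.2 and 74.8 CPM in L345 and at 98.0, 198 and 148 CPM in L6S1 (0.95 ± 0.27, 0.401).

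Markers of the nociceptor classes did not pass either. None of 14 peptidergic markers tested was called, with a median of 0.36, and none of 15 markers of the Mrgprd class, with a median of -0.42. Mrgprd was at 577, 637 and 400 CPM in L345 and at 399, 324 and 390 CPM in L6S1, a difference of -0.54 ± 0.23 (edgeR adjusted p = 0.401). L345 D, at 400 CPM, lay next to L6S1 A. Runx1, the transcription factor that sets up this class, was at 143, 139 and 94.4 CPM in L345 and at 93.9, 82.4 and 55.9 CPM in L6S1 (-0.69 ± 0.26, 0.401). Gfra2, the neurturin receptor that pairs with Ret, was at 334, 334 and 362 CPM in L345 and at 259, 209 and 299 CPM in L6S1 (-0.42 ± 0.21, 0.405). Htr3a, a serotonin-gated channel, was at 28.3, 52.4 and 45.3 CPM in L345 and at 141, 53.7 and 137 CPM in L6S1 (1.399 ± 0.38, 0.401), with L6S1 B next to L345.

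Channel and guidance genes had medians below 0 and no call. The 59 potassium channel genes tested had a median of -0.38, with 14 of the 59 lower in every L6S1 library (10.1% of all genes were) and 5 higher in every one (9.68% of all genes were). The 50 axon guidance genes had a median of -0.35. For the potassium channels the medians in L6S1 A, B and C were -0.12, -0.49 and -0.47, so B and C lay further from L345 than A. Sema3a, a repellent guidance cue, was at no more than 0.234 CPM in L345 and at 1.03, 1.17 and 0.550 CPM in L6S1 (2.67 ± 0.65, edgeR adjusted p = 0.352). Over all genes tested, 6742 of 14693 lay above 0. Nuclear genes of oxidative phosphorylation had 63 of 75 members above 0 and medians of 0.14, 0.52 and 0.63 in A, B and C. Cytosolic ribosomal protein genes had 61 of 78 above 0 and medians of 0.11, 0.41 and 0.44, and in neither list was a gene called.

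**Figure D4:**
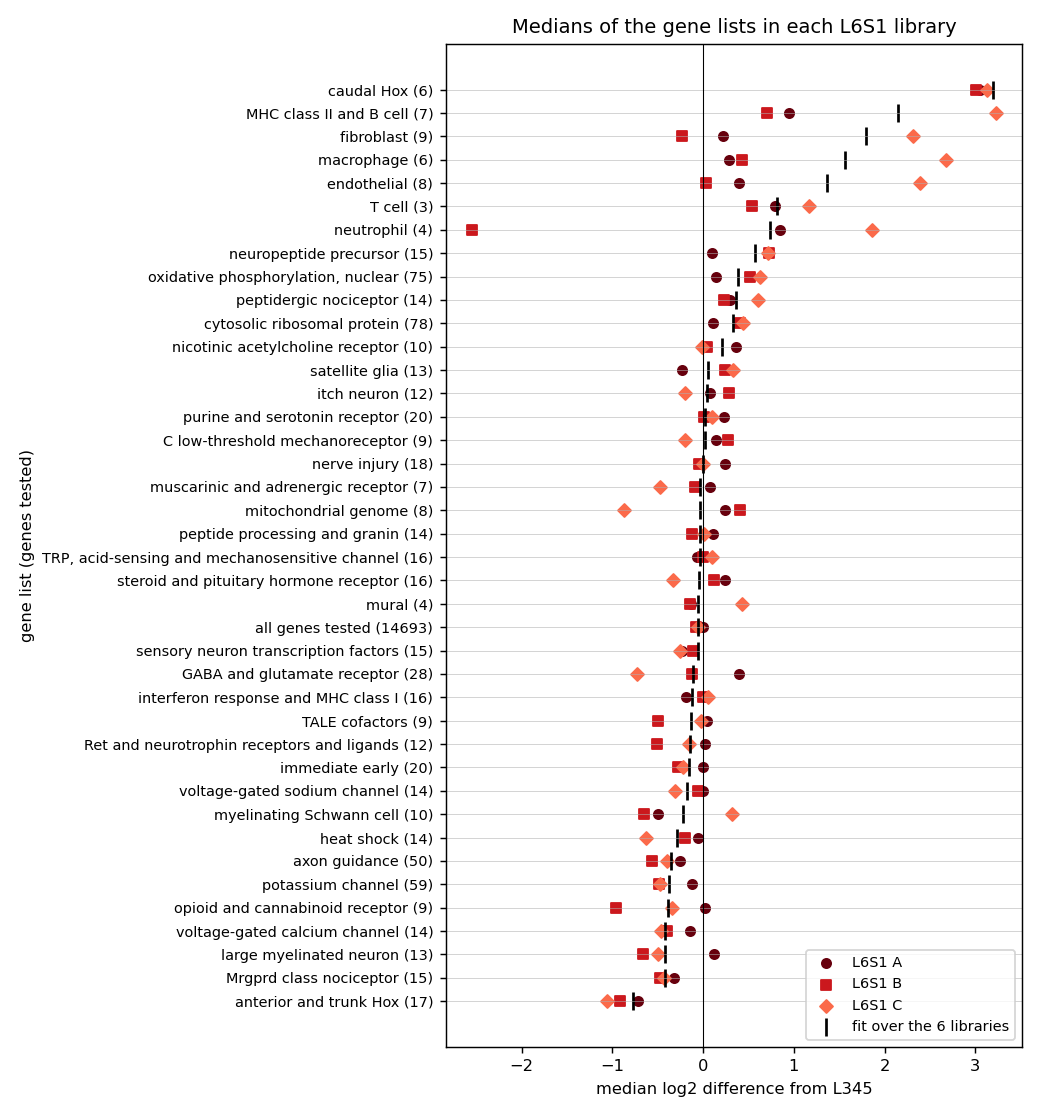
Median log2 difference from the L345 mean (horizontal axis) of each gene list with at least 3 tested genes (vertical axis, number tested in brackets), for L6S1 A, B and C (symbols) and for the fit over the 6 libraries (black bars). The caudal Hox list sits near 3 in all 3 libraries, while the macrophage, endothelial, fibroblast and class II lists are above 2 in L6S1 C alone.

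One abundant noncoding transcript had separate groups as well. Gm42418, a locus that overlaps ribosomal RNA sequence, was at 14507, 19384 and 6667 CPM in L345 and at 6312, 2517 and 4995 CPM in L6S1, without overlap and without passing the test (-1.55 ± 0.42, edgeR adjusted p = 0.401). The log2 deviation of the 10% of genes with the highest GC content minus that of the 10% with the lowest was -0.15 in L6S1 A, -0.95 in B and 0.68 in C, and -0.17 to 0.44 in L345. With GC and length offsets for each library, all 18 genes stayed called, among 40. These offsets moved the medians of 10 gene lists by at least the SD of their L6S1 A, B and C values. The medians of 29 lists moved less.

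The male libraries, which share no pool with the female ones, gave a check of the same contrast. In a fit of all 12 libraries, all 18 genes had the same sign in males, and for 17 of them every male L6S1 library lay outside the male L345 range on that side (12.5% of 15281 genes did on the higher side and 12.2% on the lower). In that fit 14 of the 18 passed in males at an adjusted p under 0.05 (edgeR quasi-likelihood F-test), as did 34 of 15281 genes in all (0.222%, or 0.183% higher and 0.0393% lower). Of the 18, those that did not pass in males were Scgn (1.63, edgeR adjusted p = 0.267), Serpinb1b (0.83, 0.133), Igha (3.60, 0.0623) and Olfr558 (1.24, 0.590). The median log2 difference of the 18 was 2.10 in males and 2.78 in females. The 18 were chosen for their female difference, so the larger female median is no sign of a difference between the sexes. No gene passed the test of the difference between the sexes (0 of 15281, edgeR, smallest adjusted p = 0.475, 714 genes at an unadjusted p under 0.05). DESeq2 gave 2 genes, limma-voom 2, and the fit without female L6S1 A gave 817.

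Among the 18, only Olfr558 had male groups that were not separate. Male L345 A, B and C had 0.189, 0.254 and 0.0402 CPM, and male L6S1 A, B and C had 0.198, 0.508 and 0.414 CPM, so the male groups overlapped. The female minus male difference in log2 fold change was 4.97 ± 1.13 (edgeR interaction adjusted p = 0.871). Serpinb1b was at 10.4, 14.4 and 11.9 CPM in male L345 and at 22.7, 22.2 and 20.2 CPM in male L6S1, a smaller difference than in females by 1.03 ± 0.26 (edgeR interaction adjusted p = 0.871). Penk went the other way, from 14.2, 7.41 and 14.96 CPM in male L345 to 112, 86.7 and 151 CPM in male L6S1, and its female minus male difference was -2.11 ± 0.55 (edgeR interaction adjusted p = 0.871). Hoxd10 was at 8.59, 1.01 and 6.63 CPM in male L345 and at 55.0, 67.0 and 60.4 CPM in male L6S1, and its difference between the sexes was -0.12 ± 0.62.

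**Figure D5:**
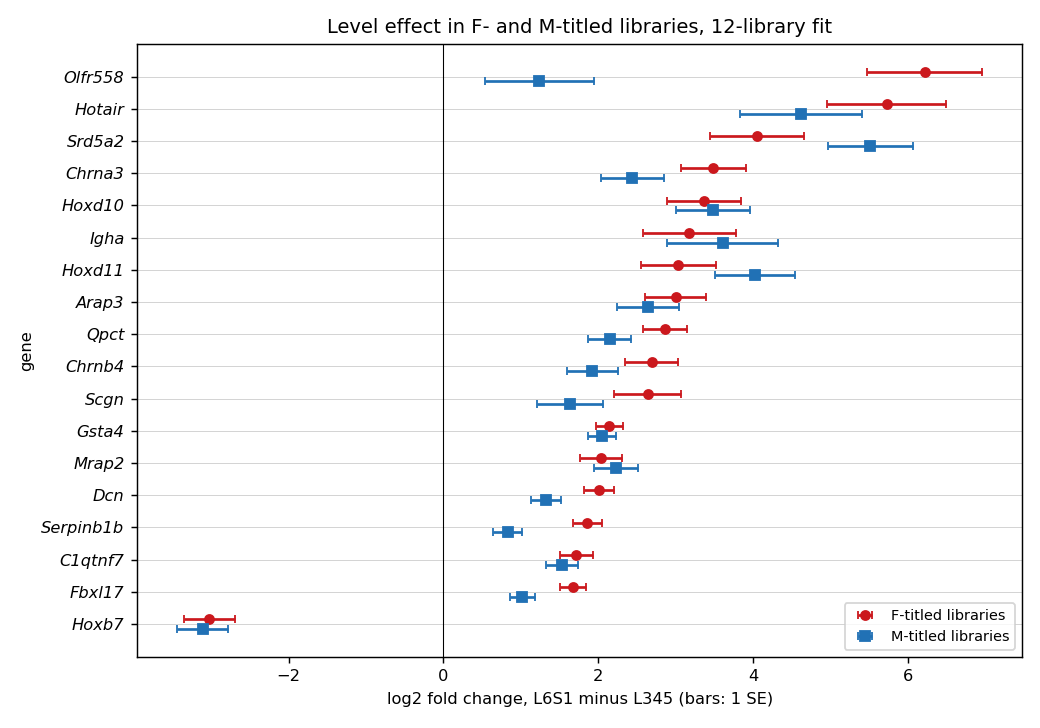
Log2 fold change, L6S1 minus L345, with 1 SE (horizontal axis), of the 18 genes called in females (vertical axis), in the F-titled (red circles) and M-titled libraries (blue squares) of the 12-library fit. All 18 pairs lie on the same side of 0, and Olfr558 is the pair furthest apart.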

How the data were processed

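RNA from EGFP-sorted dorsal root ganglion cells was measured in 6 female libraries, 3 per level. Alignment used Subread, and counting used featureCounts 1.4.5, against GRCm38.p2, as the submitters' processing notes say. Annotation release, strand setting and the handling of reads matching several genes are not stated there. The deposited counts are whole numbers for 41388 genes and were the values tested. The authors' CPM is the count divided by the sum of its own table, on the usual CPM scale, and the authors' RPKM equals that CPM per kilobase; neither was tested. GENCODE M21 gave symbols for 40340 genes (97.5%), GC content and length.

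Genes were tested with edgeR 4.0.16 (R 4.3.3): TMM scaling, filterByExpr, a robust quasi-likelihood fit of 1 mean per level (4 residual degrees of freedom), Benjamini-Hochberg adjustment over 14693 genes and a threshold of 0.05. Printed CPM of single genes is TMM-scaled, while sums over a gene list use CPM scaled to the library total alone. The interaction used all 12 libraries. Differences of single libraries are in log2 CPM (prior count 2). No 2 female libraries of the same level held identical counts, and chi-square per degree of freedom between them was at least 13.8. Pairs across levels were not compared in this way. The code was tested on simulated counts with 200 changed genes. It called 23% of the 2-fold and 93% of the 4-fold changes, so a 2-fold change was mostly missed. Of its 127 calls, 8.66% were false. DESeq2 1.42.0, limma-voom 3.58.1, other scalings and filters, a submission term, submissions alone, GC and length offsets, and each library left out were alternatives.

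Genes were named by rule: called genes of at least 2 CPM by size (12 per direction), called members or the smallest p of each of 41 lists, 8 genes per direction for each L6S1 library, and a set of genes named whether called or not. Fbxl17, Serpinb1b and C1qtnf7 were added as the rest of the called genes. The libraries, lists and genes were chosen with earlier results of these data known.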

Additional observations from a re-analysis of the deposited data

How the results depend on the processing

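The fit of the 6 libraries called 18 genes. Upper-quartile scaling gave 36, DESeq2 90 (79 higher and 11 lower), limma-voom with quality weights 38, no filter on low counts 66, the female effect of the 12-library fit 55, and GC and length offsets 40. A term for submission gave 7, all among the 18, the first submission alone 80 and the second alone 384. Leaving out 1 library gave 7 to 1361 calls: 7 without L345 C, 10 without L345 D, 38 without L6S1 C and 1361 without L6S1 A. RLE scaling gave 19, a filter of 1 CPM in 3 libraries 17, and L6S1 A alone 24. Hoxd10, Hoxd11, Qpct, Scgn and Chrna3 were called in all 19 settings, and all 18 genes kept their sign in each setting that gave them a value. The cause of these changes was not tested.

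The 2 levels share only the letters B and C, which nothing in the labels ties to the same mice. With these letters as a replicate block, 3271 genes were called (1042 higher and 2229 lower) on 1 residual degree of freedom. Deviations from the level means had a Pearson r over genes of 0.41 between the B libraries and 0.013 between the C libraries. Between different letters it was -0.56 for L345 B with L6S1 C and -0.014 for L345 C with L6S1 B.

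The interaction called 0 genes; DESeq2 called 2, limma-voom 2 and no filter 3. Leaving out 1 library gave 0 to 817, and only the fit without female L6S1 A gave any. Ret, at -0.02, turned to 0.033 under RLE scaling, 0.094 under upper-quartile scaling, 0.033 in DESeq2, 0.32 in the second submission and 0.31 with GC and length offsets, and ranged from -0.20 to 0.12 with 1 library left out, above 0 without L345 B, L345 C, L6S1 A or L6S1 B. Hoxa10, at -0.09, turned to 0.013 under upper-quartile scaling and ranged from -0.13 to 0.0044 with 1 library left out, above 0 without L345 D. The median of all genes moved from -0.06 to 0.05 under upper-quartile scaling and with GC and length offsets.

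Depth limits the rare genes: Srd5a2, Hotair and Olfr558 rest on 3 to 5 counts in all of L345.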
